A study of Homo sapiens with 60 samples.

Results

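At day 15 of differentiation, SH-SY5Y cells kept in 1.26 µM lead (Pb) were compared with cells kept without Pb (0 µM), with 3 libraries in each group, so 6 of the 60 libraries of the series. SH-SY5Y is an established human neuroblastoma line, wild type in all groups per the labels, that can be driven towards a neuron-like state. Every library came from its own 15 cm dish of cells of 1 passage. Pb was given from day 5 and renewed at each change of medium. Besides the pair compared here, dishes with 0.16 and 10 µM were collected at day 15, and all 4 doses at days 6, 9, 12 and 18. Expression was measured with PlexWell, in which the cDNA of each well receives its own barcode by tagmentation before wells are pooled, and is given as counts per 1e+06 assigned reads (CPM). Since dishes of 1 line at 1 passage are the replicates, p-values measure only the spread between these dishes.

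Pb is a heavy metal that can displace calcium and zinc from proteins, binds thiol groups and is known for its harm to developing nervous tissue. Neuroblastoma cells divide until they differentiate, and leaving the cell cycle is a step towards the neuronal state. Cells answer metals and misfolded proteins with several well-studied programmes: the unfolded protein response raises chaperones of the endoplasmic reticulum, NRF2 raises antioxidant enzymes, p53 raises inhibitors of cell division, and metallothioneins bind metal ions.

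Depth at day 15 was 24.9 to 41.1 M reads per library (M stands for 1e+06) without Pb and 23.8 to 36.6 M with 1.26 µM, and 3 reads in a library corresponded to between 0.073 and 0.126 CPM. The library names in the table begin with 1 prefix for days 6 to 15 and with another for day 18; what the prefix stands for is not given in the sources used here. Noradrenergic markers were present in both groups. DBH, the enzyme that makes noradrenaline, had 10655 ± 237 CPM (SD, n = 3) without Pb and 11464 ± 44.9 CPM (SD, n = 3) with it. TH, the first enzyme of that pathway, was low at 8.75 ± 0.413 and 6.96 ± 0.58 CPM (SD, n = 3 each). Summed over 20 noradrenergic markers, levels ran from 14920 to 15410 CPM without Pb and from 15690 to 15970 CPM with it, and 0 of 19 markers tested passed the threshold. DBH made up most of these sums. Over the 19 markers the median log2 difference was -0.03, with 8 positive and 11 negative differences. Mesenchymal markers, which also mark the substrate-adherent state known in this line, were present: 22 of them summed to between 1321 and 1621 CPM without Pb and between 1209 and 1489 CPM with it, VIM had between 97.9 and 109 CPM and between 88.9 and 95.6 CPM, and 0 of 20 tested passed. WWTR1 came nearest, at -0.62 ± 0.17 (SE; limma, adjusted p = 0.0526), and passed under some of the alternative settings given below. Of the 20, 5 were lower and 2 higher without overlap of the groups, against 7.93% and 8.96% of all genes tested. Markers of other lineages were low: 10 Schwann and glial markers summed to between 17.7 and 19.9 CPM without Pb and between 19.3 and 23.2 CPM with it, and 12 epithelial and blood cell markers to between 26.2 and 33.5 CPM and between 24.5 and 32.5 CPM. HBB and CD3E had no read in any of the 6 libraries, and SOX10 was at most 0.168 CPM.

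With 1.26 µM Pb, 192 of 15263 genes tested differed from the control at day 15 (limma on log2(CPM + 1), Benjamini-Hochberg adjusted p under 0.05), which is 1.26% of the genes. Of these, 50 were higher with Pb (0.328%) and 142 were lower (0.93%). The lower genes included 20 of 32 listed genes of cell division and 12 of 32 of ribosomal proteins, and the higher ones included chaperones of the endoplasmic reticulum, enzymes of cholesterol synthesis, 2 secreted neuropeptide precursors and the p53 targets CDKN1A and GDF15. Differences were small: the median size was 0.32 among the higher and 0.37 among the lower genes on the log2 scale, and 1 gene, COL3A1, passed a difference of 1. In 49 of the 50 higher and 139 of the 142 lower genes the 3 Pb libraries did not overlap the 3 control libraries. Over all genes tested this was so in the higher direction for 8.96% and in the lower direction for 7.93%. Nearly all called genes thus lack overlap, so where this is said of single called genes below it is no further support. The median difference of all genes was 0.01, and of the 15263 differences 8246 were positive and 7015 negative. The count rests on the spread taken from all 60 libraries: a fit of the 6 libraries alone called 13 genes, a fit of the 12 libraries of day 15 called 45, and 1550 genes had an unadjusted p under 0.05. Left out singly, control replicate 1 gave 68 calls, control replicate 3 gave 99, Pb replicate 2 gave 90 and Pb replicate 3 gave 65.

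**Figure D1:**
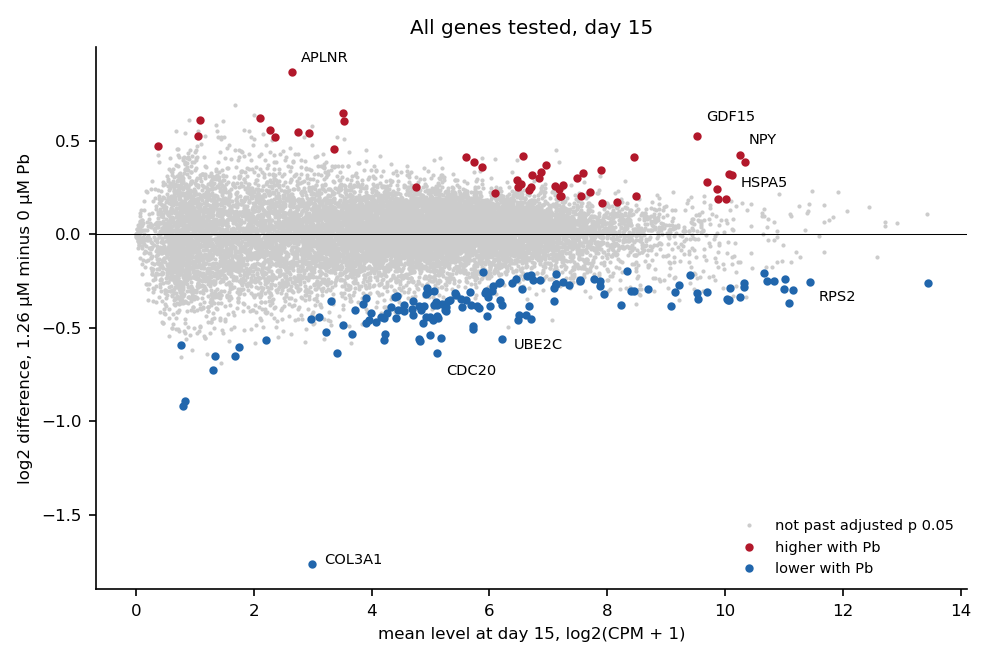
Each point is 1 of 15263 genes, with its mean level at day 15 on the x axis, as log2(CPM + 1), and the log2 difference between 1.26 and 0 µM Pb on the y axis. Red points are the 50 genes higher and blue points the 142 genes lower at an adjusted p under 0.05; COL3A1 stands lowest at -1.76 and APLNR highest among the red points at 0.87.

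The promoters of 4 genes that fell and 3 that rose are printed first, because the text returns to their letters. They are examples, not a sample of the called genes. The cell cycle genes homology region, TTTGAA, is a promoter element through which genes of G2 and mitosis are repressed outside of division, and CCAAT is the box bound by NF-Y. The endoplasmic reticulum stress element, which is CCAAT and CCACG with 9 bases of any kind between them, is the site of ATF6 together with NF-Y. The stretches are the 120 bases before a RefSeq start of each gene on the build GRCh38.p14, written 5′ to 3′ on the strand of the gene. For PDIA4 the start used lies inside the RefSeq span of the gene, which reaches to position 149028505, so its stretch overlaps that span. Capitals mark TTTGAA and CCAAT, the latter as ATTGG where it lies on the other strand, and in HSPA5 only the whole stress element. CDC20 lies at chr1:43358861-43358980 on the plus strand, CDCA8 at chr1:37692396-37692515 on the plus strand, CENPA at chr2:26785936-26786055 on the plus strand, MXD3 at chr5:177312753-177312872 on the minus strand, HSPA5 at chr9:125241344-125241463 on the minus strand, PDIA4 at chr7:149028491-149028610 on the minus strand and DNAJB11 at chr3:186570600-186570719 on the plus strand.
CDC20: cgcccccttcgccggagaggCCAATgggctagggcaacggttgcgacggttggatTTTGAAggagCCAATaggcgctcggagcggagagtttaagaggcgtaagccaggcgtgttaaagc
CDCA8: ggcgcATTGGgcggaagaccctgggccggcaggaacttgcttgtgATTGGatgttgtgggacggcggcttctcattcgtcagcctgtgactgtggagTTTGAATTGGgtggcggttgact
CENPA: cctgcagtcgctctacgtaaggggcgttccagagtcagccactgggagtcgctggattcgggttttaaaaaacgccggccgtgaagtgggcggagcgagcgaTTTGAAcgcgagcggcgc
MXD3: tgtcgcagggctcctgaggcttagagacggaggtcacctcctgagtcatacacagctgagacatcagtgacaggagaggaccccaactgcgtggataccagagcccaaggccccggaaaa
HSPA5: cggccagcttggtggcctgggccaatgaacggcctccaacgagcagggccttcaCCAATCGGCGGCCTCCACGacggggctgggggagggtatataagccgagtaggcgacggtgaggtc
PDIA4: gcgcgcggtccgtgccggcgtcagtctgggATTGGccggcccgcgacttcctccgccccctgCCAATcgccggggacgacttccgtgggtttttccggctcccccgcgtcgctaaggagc
DNAJB11: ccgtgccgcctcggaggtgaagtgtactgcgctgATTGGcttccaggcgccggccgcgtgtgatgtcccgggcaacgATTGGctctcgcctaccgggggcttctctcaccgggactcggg
In CDCA8 the TTTGAA and the last ATTGG overlap. The printed stretch of MXD3, which is among the largest falls, holds neither TTTGAA nor CCAAT. Further from its start, at -142 to -138, MXD3 has a CCAAT on the other strand, within the 250 bases searched next. Searched on both strands in the 250 bases before the start, TTTGAA was found in 13.6% of 27305 promoters of the reference set, in 24 of 110 promoters of the genes that fell (21.8%), in 5 of 40 of the genes that rose (12.5%) and in 7 of 12 promoters of the G2 and mitosis genes of the cell cycle list. The reference set was not limited to the 15263 genes tested for expression. Shares over the tested genes alone were not computed, so the shares of called genes have no matched background here. CCAAT was found in 33% of all promoters, in 69 of the 110 of the genes that fell (62.7%), in 18 of the 40 of the genes that rose (45%), in 11 of the 12 and in 16 of 18 promoters of the unfolded protein response list, whose members count here whether they rose or not. The full stress element was found in 0.0806% of all promoters, in 6 of the 18, in 2 of the 40 and in 0 of the 110. TTTGAA and the stress element are known from the kinds of genes in these lists, so their shares in lists chosen by function say nothing about Pb. These are matches of letters, not measured sites.

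Genes of cell division were lower with Pb. Of 32 genes of cell cycle and replication, 20 fell, 0 rose and 12 did not pass, while 0.93% of all genes tested fell. The median difference was -0.35 against 0.01 for all genes. All but 1 of the 32 differences were negative, against 7015 of 15263 over all genes. The exception was POLE2, a subunit of DNA polymerase epsilon, at 0.01 ± 0.15 (SE). Parted after the values were seen, 11 of the 14 genes of G2 and mitosis fell, with a median of -0.38, and 9 of the 18 genes of S phase, with a median of -0.23. Fewer dividing cells and less of these RNAs per dividing cell cannot be told apart in bulk RNA.

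CDC20, the activator of the anaphase-promoting complex (APC/C) that starts chromosome separation, had 41.5, 40.8 and 40.7 CPM without Pb and 25.1, 26.6 and 26.6 CPM with it. All 3 Pb libraries were thus well below all 3 controls. The log2 difference was -0.63 ± 0.07 (SE; limma, adjusted p = 1.49e-07). UBE2C, the ubiquitin-conjugating enzyme that works with that complex, had 88.3, 80.0 and 93.3 CPM without Pb and 64.5, 58.2 and 53.5 CPM with it, again with no overlap. It fell by 0.56 ± 0.08 on the log2 scale (limma, adjusted p = 2.57e-05). The largest falls, CDC20 and UBE2C among them, were named by a rule that required no overlap, so its absence is no further support.

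The chromosomal passenger complex, which corrects wrong attachments of chromosomes to the spindle, had 3 members among the genes that fell. AURKB, its kinase, went from 45.1, 41.1 and 39.9 CPM to 29.1, 27.1 and 28.7 CPM, a difference of -0.55 ± 0.09 (SE; limma, adjusted p = 0.00024). BIRC5, known as survivin, went from 109, 103 and 98.2 CPM to 82.1, 72.6 and 74.9 CPM, a difference of -0.43 ± 0.07 (SE; limma, adjusted p = 0.000172). CDCA8, known as borealin, had a mean of 34.0 ± 2.8 CPM (SD, n = 3) without Pb and 24.7 ± 1.06 CPM (SD, n = 3) with it. In each of the 3 the groups did not overlap. INCENP, the scaffold of the complex, did not pass at -0.27 ± 0.12 (SE; limma, adjusted p = 0.428; named after its value was seen). CDC20, UBE2C and AURKB passed under all 11 alternatives and without each of the 6 libraries.

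Kinetochore and chromosome genes were among the largest falls. SKA3, which couples kinetochores to microtubules, fell by 0.63 ± 0.12 on the log2 scale (limma, adjusted p = 0.000988), from 11.9 ± 1.39 to 7.33 ± 1.16 CPM (SD, n = 3 each). CENPA, the histone variant that marks centromeres, fell by 0.54 ± 0.11, from 36.9 ± 2.28 to 25.0 ± 0.728 CPM. NCAPH, a condensin subunit, fell by 0.56 ± 0.09, and CENPF, a kinetochore protein of G2 and mitosis, by 0.43 ± 0.07. PIMREG, a gene of dividing cells, fell by 0.57 ± 0.08, from 32.9 ± 1.9 to 21.8 ± 1.19 CPM (SD, n = 3 each). CDKN3, a phosphatase acting on CDK proteins, fell by 0.53 ± 0.10 and EME1, a subunit of a DNA endonuclease, by 0.53 ± 0.12. FAM111B fell by 0.52 ± 0.13; its call was lost without 5 of the 6 libraries (all but Pb replicate 2), with adjusted p up to 0.174. MXD3, a partner of MAX that opposes MYC at shared DNA sites, fell by 0.56 ± 0.09, from 32.1 ± 1.76 to 21.5 ± 1.75 CPM (SD, n = 3 each).

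Among S phase genes, the thymidine kinase gene TK1 fell by 0.49 ± 0.08 on the log2 scale (limma, adjusted p = 0.00024), from 60.7 ± 2.23 to 42.8 ± 1.36 CPM (SD, n = 3 each). GINS2 and CDC45, parts of the replicative helicase, fell by 0.43 and 0.40. Its ring subunits MCM2, MCM3, MCM5 and MCM7 fell by 0.35, 0.22, 0.20 and 0.24, while MCM4 and MCM6 did not pass at -0.17 and -0.13. PCNA, the sliding clamp, fell by 0.26 and RRM2, a subunit of ribonucleotide reductase, by 0.30. In G2 and mitosis the cyclins CCNB1 and CCNB2 fell by 0.38 each, CCNA2 by 0.35 and their kinase CDK1 by 0.35. Also lower were the proliferation marker MKI67, at -0.38, the topoisomerase gene TOP2A, at -0.45, and the mitotic kinase gene PLK1, at -0.39. AURKA, with -0.34 and adjusted p = 0.127 (limma), BUB1 and BUB1B did not pass.

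More genes of division outside the list were among the 142; those given here were chosen after their values were seen. The kinesins KIF4A, KIF20A and KIF2C, motors of the spindle, fell by 0.46, 0.44 and 0.38, and the spindle assembly factor TPX2 by 0.39. CDCA5 and SGO1, which hold and protect sister chromatid cohesion, fell by 0.38 and 0.49. RAD54L, of recombination repair, fell by 0.46, and LIG1 and FEN1, which join and trim lagging strands, by 0.28 and 0.22. HMGB2, a chromatin protein abundant in dividing cells, fell by 0.36.

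For the cell cycle list the count of 20 became 4 in a fit of the 6 libraries alone and 9 in a fit of day 15 alone. It was 10 without control replicate 1 and 13 without either Pb replicate 2 or Pb replicate 3, with a median between -0.35 and -0.28 whichever of the 6 libraries was left out.

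**Figure D2:**
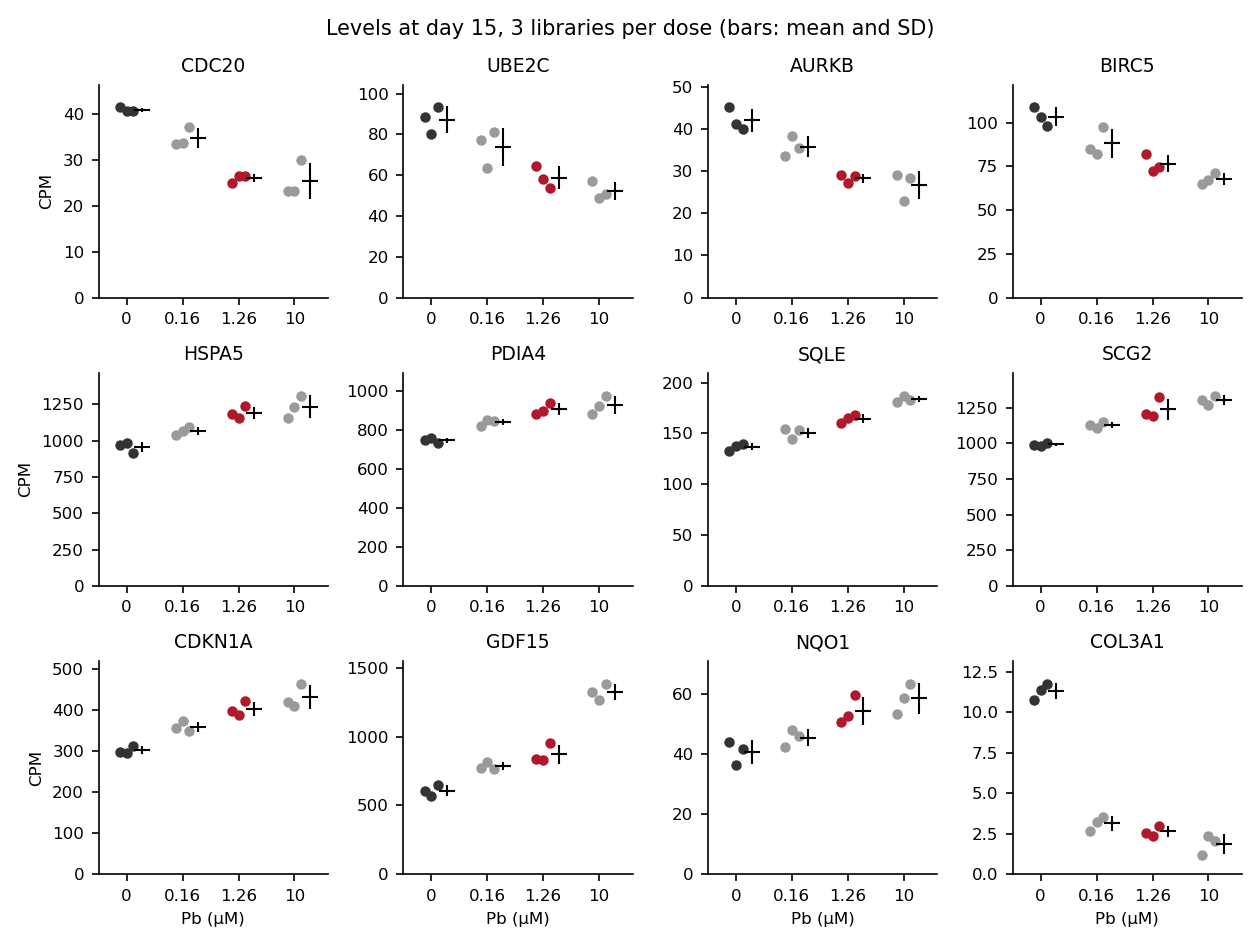
CPM of 12 genes in every library of day 15, with Pb dose in µM on the x axis, 3 points per dose (black 0, red 1.26, grey 0.16 and 10 µM) and bars for the mean and SD. CDC20 sits between 25.1 and 26.6 CPM with 1.26 µM, below the controls at 40.7 to 41.5, and COL3A1 is already low at 0.16 µM.

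Chaperones of the endoplasmic reticulum were higher with Pb. Of 19 genes of the unfolded protein response that were tested, out of 20 listed, 7 rose and 0 fell, with a median difference of 0.19. All 19 differences were positive. Over all genes tested, 0.328% rose and 8246 of 15263 differences were positive. HSPA5, the chaperone BiP whose promoter is printed above, had 967, 983 and 918 CPM without Pb and 1184, 1158 and 1239.8 CPM with it. No Pb library overlapped the controls, and the difference was 0.32 ± 0.05 (SE; limma, adjusted p = 5.73e-05). PDIA4, a disulfide isomerase, rose by 0.28 ± 0.05, from 748 ± 13.7 to 908 ± 30.1 CPM (SD, n = 3 each). DNAJB11, a cochaperone of BiP, rose by 0.30 ± 0.06, from 161 ± 2.82 to 198 ± 4.91 CPM (SD, n = 3 each). The cochaperones DNAJC3 and DNAJB9 rose by 0.29 and 0.27, the chaperone HSP90B1 by 0.19 and the isomerase PDIA3 by 0.19. CALR, with 0.16 and adjusted p = 0.0979 (limma), HERPUD1 at 0.22 and the transcription factor XBP1 at 0.17 did not pass. Under ATF4, the arm of the stress response that serves amino acid supply, 0 of 20 genes passed and the median was -6.25e-05. The count of 7 became 0 in a fit of the 6 libraries alone, 3 in a fit of day 15, 4 with DESeq2, 3 without control replicate 3 or without Pb replicate 3 and 4 without control replicate 1. HSPA5, PDIA4 and DNAJB11 kept their calls without each of the 6 libraries, but not in the fit of those libraries alone, and DNAJB11 lost its call with the correction for GC content and length.

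Enzymes of sterol synthesis were also higher. Of 26 genes of cholesterol and fatty acid synthesis tested, 5 rose and 0 fell, with a median of 0.18 (0.328% of all genes rose). SQLE, squalene epoxidase, had 133, 138 and 139.8 CPM without Pb and 160.3, 165 and 169 CPM with it, so the groups were apart. It rose by 0.26 ± 0.06 (SE; limma, adjusted p = 0.00617). MSMO1, a sterol demethylating enzyme, rose by 0.33 ± 0.07, HMGCS1, an early enzyme of the mevalonate pathway, by 0.34 ± 0.09 and IDI1, an isomerase of the same pathway, by 0.24 ± 0.06. The call of IDI1 was lost under 6 of 11 alternatives and without any 1 of the 6 libraries. INSIG1, the sterol-regulated protein that holds SREBP factors in the endoplasmic reticulum, rose by 0.31 ± 0.07. The factors SREBF1 and SREBF2, at -0.01 and 0.04, did not pass. The count of 5 became 0 in a fit of the 6 libraries and without Pb replicate 3, 1 without control replicate 1 or 3, 3 without control replicate 2 or Pb replicate 2, and 8 without the 2 libraries of days 6 and 18 that were low in long transcripts.

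**Figure D3:**
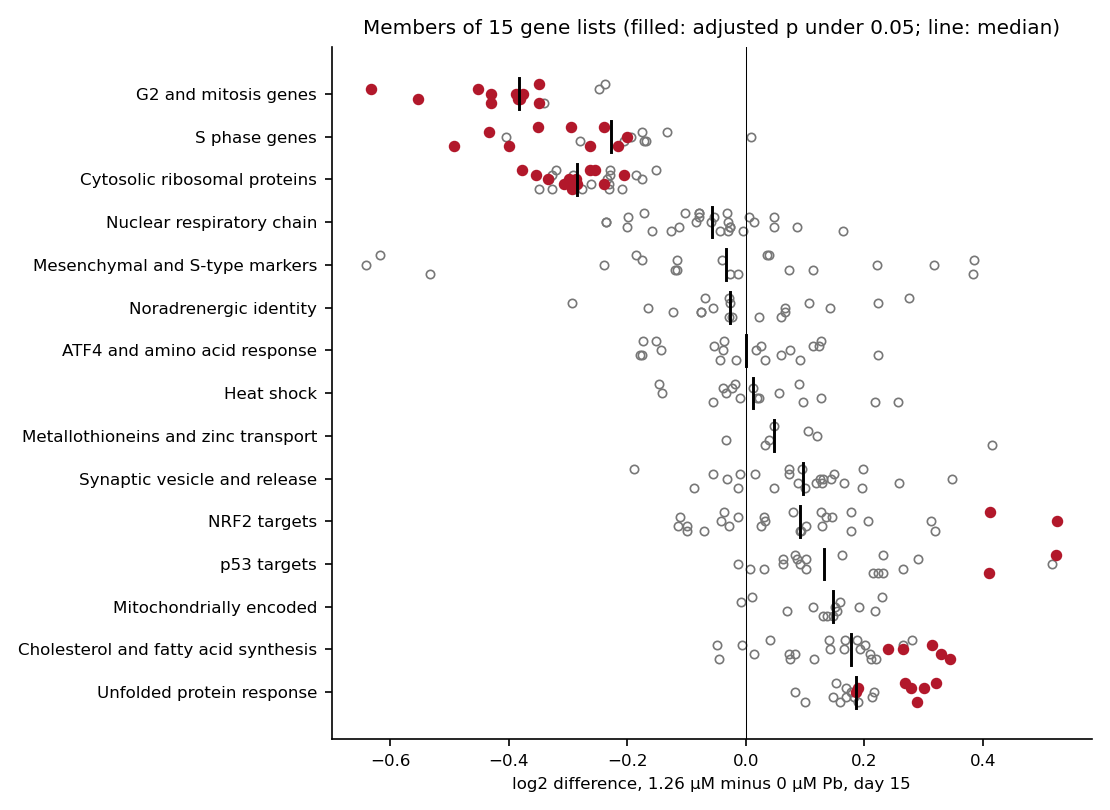
Log2 difference between 1.26 and 0 µM Pb at day 15 (x axis) for the members of 15 gene lists (y axis), with filled points for genes at an adjusted p under 0.05 and a line at the median of each list. The G2 and mitosis genes have a median of -0.38, the ribosomal proteins -0.29 and the unfolded protein response genes 0.19.

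Ribosomal protein RNAs were lower with Pb. Of 32 genes of cytosolic ribosomal proteins, 12 fell and 0 rose, with a median of -0.29, and all 32 differences were negative. Over all genes tested, 0.93% fell and 7015 of 15263 differences were negative. RPLP0, of the ribosomal stalk, had 1211, 1128 and 1231 CPM without Pb and 1024, 986 and 918 CPM with it. RPS3 had 1405, 1324 and 1371 CPM without Pb and 1192, 1106 and 964 CPM with it. In both the groups were apart, with differences of -0.29 ± 0.06 (SE; limma, adjusted p = 0.00197) and -0.33 ± 0.07 (SE; limma, adjusted p = 0.00387). RPL13 fell by 0.30 ± 0.07 and RPSA by 0.28 ± 0.06. RACK1, a scaffold on the small subunit, and GAS5, a host gene of small nucleolar RNAs, fell by 0.25 and 0.32 (both chosen after their values were seen). Ribosomal pseudogenes such as RPL10P9, and RPSA2, a protein-coding relative of RPSA, were also among the 142 genes, and reads shared with the parent genes make their values uncertain.

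The libraries also differed in their content of long transcripts. The slope of a library's log2 level, relative to the mean of its day, per log10 unit of transcript length was -0.0259, -0.0226 and -0.192 without Pb and -0.117, 0.0679 and 0.156 with 1.26 µM, and ribosomal protein transcripts are short. RPS3 is given beside the slopes as an example only. Among the Pb libraries it was lower the higher the slope. Among the controls, replicate 3 had the lowest slope and an RPS3 level between those of replicates 1 and 2. With a correction for GC content and length, 10 of the 32 fell, with a median of -0.25. Without Pb replicate 3, the library with the highest slope, 0 fell and the median was -0.19. It was 24 without Pb replicate 1, 9 without control replicate 2, 3 without control replicate 1 or Pb replicate 2 and 2 without control replicate 3. Median-ratio rescaling gave 7, no filter 5, edgeR 5, DESeq2 6, and fits of the 6 libraries or of day 15 gave 0. The part of transcript length in the difference was not tested beyond that correction.

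Among p53 targets, 2 of 20 rose and 0 fell, with a median of 0.13 (0.328% of all genes rose). CDKN1A, the CDK inhibitor p21 that halts division, had 298, 296 and 314 CPM without Pb and 397, 387 and 421 CPM with it. GDF15, a secreted cytokine of the TGF-beta family released by stressed cells, had 602, 568 and 648 CPM without Pb and 836, 829 and 952 CPM with it. Every Pb library was above every control in both. CDKN1A rose by 0.41 ± 0.08 (SE; limma, adjusted p = 0.00213) and kept its call under all 11 alternatives and without each of the 6 libraries. GDF15 rose by 0.52 ± 0.11 (SE; limma, adjusted p = 0.00328); without Pb replicate 3 the adjusted p was 0.0592. ZMAT3, an RNA-binding p53 target, did not pass at 0.23 ± 0.07, and MDM2, which degrades p53, had 0.23 ± 0.12. PLK2, a kinase gene outside the list, rose by 0.33 ± 0.07 (named after its value was seen).

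Of 27 NRF2 targets tested, 2 rose and 0 fell, with a median of 0.09 (0.328% of all genes rose). NQO1, a quinone reductase, had 44.0, 36.3 and 41.9 CPM without Pb and 50.7, 52.8 and 59.9 CPM with it, a difference of 0.41 ± 0.11 (SE; limma, adjusted p = 0.0413). AKR1C2 rose by 0.53 ± 0.14 at a mean of 0.704 CPM without Pb. Both calls were near the threshold: NQO1 was lost under 7 of 11 alternatives and without 5 of the 6 libraries (all but Pb replicate 1), and AKR1C2 under 5 and without Pb replicates 2 and 3 and control replicates 1 and 2. HMOX1, heme oxygenase, stood at -0.11 ± 0.16. Metallothioneins and zinc transport genes gave 0 calls among 7 tested, with MT2A at 12.4 ± 2.07 CPM without Pb and 13.5 ± 3.09 CPM (SD, n = 3 each) with it. Heat shock, heme synthesis, proteasome and nuclear respiratory chain genes had 0 calls each among 17, 16, 25 and 28 tested, and the 13 mitochondrially encoded genes had 0 with a median of 0.15.

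In the neuronal lists, most genes did not pass. Of 18 neuropeptides and granins tested, 2 rose (0.328% of all genes rose). SCG2, the secretory granule protein secretogranin II, had 990.4, 981 and 1004 CPM without Pb and 1203, 1190.3 and 1321 CPM with it, a difference of 0.32 ± 0.05 (SE; limma, adjusted p = 5.83e-05). NPY, the sympathetic peptide neuropeptide Y, had 941, 1012 and 1183 CPM without Pb and 1570.0, 1408 and 1231 CPM with it. The groups of SCG2 were far apart, whereas the highest control of NPY came close to the lowest Pb library. NPY rose by 0.42 ± 0.09 (SE; limma, adjusted p = 0.00678); its call was lost without Pb replicate 1 and without control replicate 1, with an adjusted p up to 0.111. CRABP2, a carrier of retinoic acid, fell by 0.26 ± 0.06, from 12129 ± 745 to 10123 ± 532 CPM (SD, n = 3 each), and STMN4, a tubulin-binding stathmin, by 0.25 ± 0.06; each of these calls was lost without 4 of the 6 libraries, which were Pb replicates 2 and 3 and control replicate 1 for both, control replicate 3 for CRABP2 and control replicate 2 for STMN4. Synaptic vesicle genes, channels, cholinergic genes and axon guidance genes gave 0 calls among 24, 20, 12 and 27 tested. In the last list the cadherin CDH11 did not pass at 0.39 ± 0.11 (SE; limma, adjusted p = 0.0629), but it passed with edgeR and with DESeq2.

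COL3A1, the alpha chain of type III collagen, showed the largest difference on the log2(CPM + 1) scale. That scale understates differences of low genes, and as a ratio of group means those of SMIM32, from 1.28 to 0.189 CPM, and GSC, from 1.32 to 0.259 CPM, were larger. The level of COL3A1 was 10.8, 11.4 and 11.8 CPM without Pb and 2.56, 2.35 and 2.98 CPM with it. The Pb libraries lay far under the controls, and the log2 difference was -1.76 ± 0.23 (SE; limma, adjusted p = 3.82e-06). It passed under all 11 alternatives and without each of the 6 libraries. Of 25 genes of collagens and matrix tested, it was the 1 that passed.

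The largest rises apart from those above were in genes of low or moderate level. APLNR, the apelin receptor, had 3.77, 2.92 and 3.57 CPM without Pb and 6.68, 6.67 and 7.82 CPM with it, a difference of 0.87 ± 0.17 (SE; limma, adjusted p = 0.00176). The keratin KRT86 rose by 0.65, the matrix glycoprotein ECM1 by 0.60, the hormone subunit CGA by 0.54, the interferon-inducible GTPase GBP2 by 0.54, the S100 protein S100A16 by 0.52, the interleukin-13 receptor IL13RA2 by 0.45 and the poly(A) polymerase TENT5A by 0.42. None of these 7 kept its call in every refit: IL13RA2 and TENT5A lost it without any 1 of the 6 libraries, KRT86, ECM1 and S100A16 without 5 of them, GBP2 without 4 and CGA without Pb replicate 3 and control replicate 3. KRT86 kept it without control replicate 2, ECM1 without control replicate 3, S100A16 without Pb replicate 3 and GBP2 without Pb replicate 2 or control replicate 2. TFPI2, an inhibitor of serine proteases, had 1069, 1126 and 1179 CPM without Pb and 1499.8, 1472 and 1439.6 CPM with it; it rose by 0.39 ± 0.08 and kept its call under all 11 alternatives and without each of the 6 libraries.

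Between neighbouring doses of day 15, few genes differed. Against 0.16 µM, 3 genes (0.0197% of those tested) differed, all lower with 1.26 µM (limma, adjusted p under 0.05, with 1068 genes at an unadjusted p under 0.05). They were MXD3, at -0.52 ± 0.09, CDC20, at -0.40 ± 0.07, and CDCA8, at -0.40 ± 0.07. MXD3 had 31.8, 31.9 and 30.3 CPM with 0.16 µM and 21.4, 23.3 and 19.8 CPM with 1.26 µM. PKMYT1, a kinase that holds CDK1 inactive, did not pass at -0.36, with an adjusted p of 0.0871. The count of 3 became 0 without Pb replicate 3 of the 1.26 µM dishes, 1 without replicate 1 or replicate 3 of the 0.16 µM dishes and 6 without replicate 2 of the latter, and 0 in fits of those 6 libraries or of day 15 alone.

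Against 10 µM, 26 genes (0.17%) differed, 17 higher (0.111%) and 9 lower (0.059%) with 10 µM. MT2A, a metallothionein that binds metal ions, had 15.7, 14.8 and 9.95 CPM with 1.26 µM and 32.8, 26.7 and 27.7 CPM with 10 µM, a difference of 1.07 ± 0.12 (SE; limma, adjusted p = 3.97e-07). TFPI2 was higher by 0.60 ± 0.08, with 2208, 2189 and 2268 CPM at 10 µM. GDF15 was higher by 0.61 ± 0.11, with 1326, 1269.7 and 1386 CPM at 10 µM. PLAT, the tissue plasminogen activator, was higher by 0.69 ± 0.10, from 12.8 ± 0.825 to 21.4 ± 2.39 CPM (SD, n = 3 each). Of the cell division genes above, CDC20 differed by -0.04 ± 0.07 and AURKB by -0.09 ± 0.09 between 1.26 and 10 µM, and neither passed. Over the cell cycle list the median of this difference was -0.08, against 0.01 for all genes. It was -0.15 for the G2 and mitosis genes of the list and -0.03 for its S phase genes. The count became 17 without replicate 1 of the 1.26 µM dishes, 14 without replicate 2 and 12 without replicate 3, and 14 and 17 without replicates 1 and 2 of the 10 µM dishes.

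The comparisons of 0.16 and 10 µM with 0 µM use the same 3 control libraries, so their values are only set beside those of 1.26 µM. They called 2 genes (0.0131%) and 867 genes (5.68%). The median difference of the cell cycle list was -0.15 at 0.16 µM, -0.35 at 1.26 µM and -0.43 at 10 µM, that of the unfolded protein response 0.11, 0.19 and 0.25, and that of the ribosomal proteins -0.14, -0.29 and -0.37. COL3A1 had 3.14 ± 0.455 CPM at 0.16 µM, 2.63 ± 0.32 at 1.26 µM and 1.88 ± 0.606 at 10 µM (SD, n = 3 each). CDC20 had 34.8 ± 2.11 CPM at 0.16 µM, 26.1 ± 0.844 at 1.26 µM and 25.5 ± 3.96 at 10 µM.

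The other days give the same contrast in libraries that day 15 does not share. Pb at 1.26 µM was followed by 0 calls at day 6 (limma; 1254 genes at an unadjusted p under 0.05), 61 at day 9 (0.4%), 7 at day 12 (0.0459%) and 1890 at day 18 (12.4%), where library names carry the other prefix. At day 18 control replicate 1 stood apart in transcript length, with a slope of -0.512 against -0.172 and 0.0144 in the other controls and 0.101 to 0.135 with 1.26 µM. Without it and 1 library of day 6 that was also low in long transcripts, 583 genes (3.82%) were called at day 18. Of the 142 genes lower at day 15, 132 had a negative difference at day 9, 121 at day 12 and 139 at day 18, against 43.5%, 45.7% and 52.6% of all genes tested. Of the 50 genes higher at day 15, 34, 40 and 41 had a positive difference at those days, against 56.5%, 54.3% and 47.4% of all genes. At day 6 the difference was negative in 81 of the 142 (57%, against 53.5% of all genes). It was positive in 26 of the 50 that day (52%, against 46.5%), so both shares were near those of all genes. Calls in both days were fewer. CCNB1, CDC20, COL3A1, FAM83D, KIF20A, MCM7 and PLK1 were also called lower at day 9, which is 4.93% of the 142 and 17.1% of the 41 genes called lower that day (0.269% of those tested). Of the 50, CDKN1A, GDF15 and NQO1 were among the 20 called higher at day 9 (0.131%), while JUNB, S100A16 and TFPI2 were among the 41 called lower that day, so 3 (6%) went each way. The day 15 call of JUNB was lost without any 1 of the 6 libraries, and those of S100A16 and NQO1 without 5 of them. CDKN1A and GDF15 were also among the 3 called higher at day 12 (0.0197%). COL3A1 was among the 4 called lower at day 12 (0.0262%). At day 18, 84 of the 142 (59.2%) were called lower, which is 16.8% of the 501 lower that day (3.28% of those tested), and 15 of the 50 (30%) were called higher, which is 1.08% of the 1389 (9.1%). Without the 2 libraries low in long transcripts these were 35 of the 142 (24.6%, against 0.898% of all genes lower) and 10 of the 50 (20%, against 2.92% higher), and 139 of the 142 differences were again negative.

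The difference at day 15 departed from the mean of the other 4 days in 7 genes (0.0459%; limma, adjusted p under 0.05, with 933 genes at an unadjusted p under 0.05). CDC20 differed by -0.12 at day 6, -0.35 at day 9, 0.01 at day 12, -0.63 at day 15 and -0.27 at day 18, and the departure was -0.45 ± 0.08 (SE; limma, adjusted p = 0.0103). UBE2C followed with a departure of -0.44 ± 0.09 and ISOC1 with 0.30 ± 0.06. S100A16 had 0.77 ± 0.16, since it was called lower at day 9, by 0.59 on the log2 scale, and higher at day 15. The count of 7 became 0 without control replicate 3, 1 without Pb replicate 2, 2 without Pb replicate 3 or control replicate 2 and 4 without control replicate 1 of day 15.

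**Figure D4:**
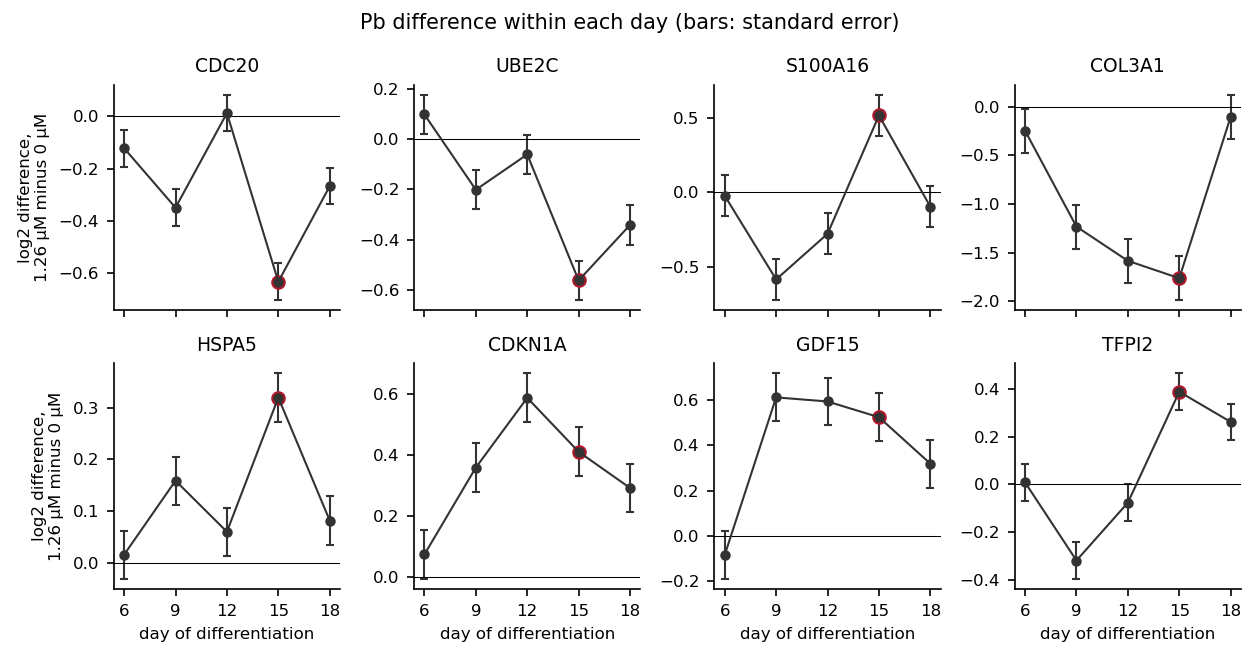
Log2 difference between 1.26 and 0 µM Pb (y axis; bars are the standard error) at each day of differentiation (x axis) for 8 genes, with day 15 in red. The difference of CDC20 is -0.63 at day 15 and 0.01 at day 12, while that of COL3A1 is -1.23 at day 9, -1.58 at day 12, -1.76 at day 15 and -0.10 at day 18.

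The genes called at day 15 also changed during differentiation without Pb. In the controls, 43 of the 50 genes higher with Pb rose between day 9 and day 12 (86%, against 20.7% of all genes tested), and 127 of the 142 lower with Pb fell over the same days (89.4%, against 33.7%). HSPA5 had 325 CPM at day 9, 2002 at day 12, 956 at day 15 and 457 at day 18 in the controls, as means of 3. CDKN1A had 139.6 CPM at day 9, 268 at day 12, 302 at day 15 and 243 at day 18. From day 12 to day 18, which joins both library prefixes, 37 of the 50 genes fell (74%, against 25.6% of all genes) while of the 142, 62 fell (43.7%) and 45 rose (31.7%, against 34.2% of all genes). The called genes had median levels of 128 CPM (higher) and 56.2 CPM (lower) at day 15, and the part of expression level in these shares was not tested.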

How the data were processed

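The authors deposited 1 table of counts per 1e+06 reads (CPM) for 37334 genes and 60 libraries. Per the submitters' processing notes, FastQC, MultiQC, STAR and featureCounts were used with the build GRCh38; versions, annotation and strand setting are not given in the sources used here, so reads of genes that overlap or share sequence may not be separated. In all columns 100% of values were whole multiples of 1 read within 0.01 read, and the recovered totals ran from 16594259 to 50539599 reads. At day 15, libraries of 1 group differed by more than counting noise, so all were counted as separate.

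A gene was tested if 3 or more libraries had 1 CPM or more (15263 genes). Values were tested as log2(CPM + 1) with limma 3.58.1 in R 4.3.3, with 1 mean per group of day and dose over 60 libraries, 40 residual degrees of freedom, two-sided tests and Benjamini-Hochberg adjustment over all genes kept, threshold 0.05. Fold differences are on this log2 scale, which understates those of low genes. The departure of day 15 from the other days and the dose contrasts came from the same fit. The procedure was tested on simulated data.

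Alternatives were a pseudocount of 0.25, no filter, median-ratio rescaling, fits of fewer libraries, a term for the replicate number, edgeR 4.0.16 and DESeq2 1.42.0 on the recovered reads, and leaving out each library. Added after the data were seen were a correction for GC content and transcript length (splines with 4 degrees of freedom, GENCODE transcripts), leaving out day 18, and leaving out the 2 libraries lowest in long transcripts. DESeq2 fitted the groups compared.

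The comparison, gene lists and tests were chosen with earlier results of these data known. Named genes were the 12 largest rises and falls past the threshold, with no overlap of libraries and a group mean of 5 CPM or more, up to 4 members of each list by smallest p, and up to 4 genes of each other contrast; further genes are said to be chosen after their values were seen, or are members of a described list. Of 37334 symbols, 36621 were found in RefSeq (GRCh38.p14), from which promoters were read. Values of some genes are not reported here.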

Additional observations from a re-analysis of the deposited data

Results flagged for a closer look

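In 7 gene symbols the difference between 1.26 and 0 µM Pb at day 15 departed from its mean over days 6, 9, 12 and 18 (limma, adjusted p under 0.05; errors are standard errors). CDC20 departed by -0.45 ± 0.08 (adjusted p = 0.0103) and UBE2C by -0.44 ± 0.09 (adjusted p = 0.0273), both toward lower levels at day 15. ISOC1, an isochorismatase domain gene, departed by 0.30 ± 0.06 (adjusted p = 0.0176); its difference was -0.36 at day 9 and 0.18 at day 15, the latter short of the threshold with an adjusted p of 0.0573. S100A16 departed by 0.77 ± 0.16 (adjusted p = 0.0273) at a level of 3.2 ± 0.117 CPM without Pb and 5.06 ± 0.908 CPM with it at day 15 (SD, n = 3 each). TFPI2 departed by 0.42 ± 0.09 (adjusted p = 0.0273), with differences of -0.32 at day 9 and 0.39 at day 15. NREP and LOC124906525 carried identical values in every library and count as 1 measurement; their departure was -0.27 ± 0.05 (adjusted p = 0.0273), from 152 ± 13.3 to 126 ± 4.43 CPM at day 15 (SD, n = 3 each).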

How the results depend on the processing

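Of 47 named genes past the threshold, 11 kept their calls under all 11 alternatives, and 9 of these also without each of the 6 libraries: AURKB, CDC20, CDKN1A, CENPA, CENPF, COL3A1, PIMREG, TFPI2 and UBE2C. The 192 calls were 185 with a pseudocount of 0.25, 202 with no filter, 170 with rescaling, 157 with edgeR and 211 with DESeq2; 142 of the 192 were shared with edgeR and 136 with DESeq2. A fit of only the groups compared called 13 genes (4 higher, 9 lower), 4 cell cycle, 0 unfolded protein response, 0 ribosomal and 0 cholesterol genes, 0 departures of day 15, 1 gene for 10 against 1.26 µM and 0 for 1.26 against 0.16 µM; it has fewer libraries from which to take the spread. A fit of day 15 alone called 45 (21 higher, 24 lower), 9 cell cycle, 3 unfolded protein response and 0 ribosomal genes, and 0 for 1.26 against 0.16 µM. No filter gave 5 ribosomal genes, 25 departures, 54 genes for 10 against 1.26 µM and 30 for 1.26 against 0.16 µM. Rescaling gave 31 higher genes, 7 ribosomal genes and 1 departure. With edgeR there were 27 higher genes, 5 ribosomal genes and 1 departure, and with DESeq2 4 unfolded protein response genes, 6 ribosomal genes, 57 genes for 10 against 1.26 µM and 12 for 1.26 against 0.16 µM. The GC and length correction gave 40 genes for 10 against 1.26 µM. Without the 2 libraries low in long transcripts there were 303 calls (103 higher), 22 ribosomal and 8 cholesterol genes, 43 genes for 10 against 1.26 µM and 6 for 1.26 against 0.16 µM. The causes of these changes in count were not tested.

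Leaving out 1 library of day 15 at a time gave 65 to 220 calls, 10 to 39 higher, 49 to 181 lower, 10 to 17 cell cycle, 3 to 7 unfolded protein response, 0 to 24 ribosomal and 0 to 4 cholesterol genes, 0 to 6 departures, 12 to 19 genes for 10 against 1.26 µM and 0 to 6 for 1.26 against 0.16 µM. Where this leaves a group with 2 libraries, the pooled fit gives its spread. Differences near 0 that did not pass changed sign. Over the 6 libraries left out, MT2A ran from -0.0114 to 0.293 and MTF1 from -0.0288 to 0.106. CHRNA7 ran from -0.0208 to 0.114, KRT14 from -0.0216 to 0.146 and KRT10 from -0.207 to 0.0207. EPCAM ran from -0.142 to 0.0035 and KRT5 from -0.0769 to 0.00269, while S100B was 0.0158 with the GC and length correction.

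Same-numbered Pb and control libraries of day 15 did not deviate together (correlations across genes of -0.0506, 0.108 and -0.201, and not every library correlated best with its own number), so the numbers were not taken as pairs. With the replicate block, the calls were 200 and the departures 4; the ribosomal count was 17. At this depth, genes under about 0.1 CPM rest on few reads.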

Other observations

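Several genes outside the lists rose with 1.26 µM Pb at day 15 and are given as values only, chosen after these were seen (limma, adjusted p under 0.05). STT3A, a catalytic subunit of the enzyme that attaches sugars to proteins in the endoplasmic reticulum, rose by 0.20 ± 0.04 on the log2 scale (SE), from 175 ± 4.92 to 201 ± 10.7 CPM (SD, n = 3 each). ELOVL6, which lengthens fatty acids, rose by 0.21 ± 0.04, from 136 ± 4.99 to 157 ± 4.34 CPM. SGK1, a kinase of the AGC family induced by glucocorticoids and stress, rose by 0.37 ± 0.10, from 108 ± 4.21 to 140.4 ± 15.5 CPM, and RGS2, which shortens signals of G proteins, by 0.25 ± 0.06, from 81.1 ± 4.15 to 96.9 ± 5.84 CPM. DKK1, a secreted WNT antagonist, rose by 0.20 ± 0.05, from 335 ± 2.92 to 386 ± 19.0 CPM.

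Among genes that fell at low level, the chemokine gene CCL2 went from 2.07 ± 0.551 to 0.854 ± 0.28 CPM (SD, n = 3 each), a difference of -0.72 ± 0.18. FOXM1, a transcription factor of G2 and mitosis genes, did not pass, with -0.32 ± 0.09 and an adjusted p of 0.0625 (limma).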
